A study of Mus musculus with 8 samples.

Results

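The shelterin and telomerase genes are 10 genes whose products cap chromosome ends or build telomere repeats, followed here through a knockdown of Rif1 in mouse embryonic stem (ES) cells. Shelterin was represented by Terf1, Terf2, Terf2ip, Tinf2, Acd, Pot1a and Pot1b, and telomerase and its access to the chromosome end by Tert, Dkc1 and Rtel1. The members were fixed by name, and a probe set (a group of array probes for one transcript) counted when the platform annotation gave a member's symbol alone. They were 10 of 18193 annotated genes and 26 of 45037 probe sets. Of the 26, 21 were among the 31605 probe sets bright enough to test, meaning a signal above the 40th percentile of the array on at least 2 arrays. All 10 genes kept at least 1 probe set.

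RNA was measured on 8 Affymetrix expression arrays, 2 for each of 4 groups. J1 ES cells (129S4/SvJae) carried a control or a Rif1 shRNA and were taken 48 h after lipofection, so the knockdown there was transient. F1 ES cells (C57BL/6xC3H) carried a control or a Rif1 shRNA as stable lines at passage 16. Cells of both lines were grown with feeder cells, and the cell-line label of the F1 control arrays also names the stable knockdown line. The labels do not say that the replicates came from separate cultures, so each p-value covers the spread from array to array alone, and that spread may be technical.

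Shelterin is the protein complex that coats telomeric TTAGGG repeats, hides the chromosome end from DNA damage signalling and controls whether telomerase can act there. TERF1 and TERF2 bind double-stranded repeats, POT1 proteins bind the single-stranded overhang, TINF2 and ACD bridge them, and TERF2IP (RAP1) joins through TERF2. Mice carry a Pot1a and a Pot1b gene, where humans have a single POT1. Telomerase copies its RNA template into new repeats: TERT is the reverse transcriptase, dyskerin (DKC1) stabilises the RNA, and the helicase RTEL1 unwinds the looped telomere end. ES cells are known for active telomerase. RIF1 is a chromatin protein that acts in replication timing and break repair.

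Tert and Dkc1 are the telomerase genes that passed the test, in different lines, and their promoter DNA is shown for reference. The arrays measured RNA and nothing bound to this DNA. Both sequences are the 250 bases before the RefSeq start in build GRCm38.p6, plus strand, from chr13:73626661-73626910 for Tert and chrX:75095604-75095853 for Dkc1. Capitals mark the GC box GGGCGG or its reverse complement CCGCCC, the motif of the SP1 family, searched on both strands.
Tert promoter: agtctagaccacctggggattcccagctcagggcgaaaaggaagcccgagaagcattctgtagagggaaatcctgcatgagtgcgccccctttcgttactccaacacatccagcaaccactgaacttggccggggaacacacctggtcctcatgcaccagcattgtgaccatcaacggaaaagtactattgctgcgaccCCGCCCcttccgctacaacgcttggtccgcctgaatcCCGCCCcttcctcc
Dkc1 promoter: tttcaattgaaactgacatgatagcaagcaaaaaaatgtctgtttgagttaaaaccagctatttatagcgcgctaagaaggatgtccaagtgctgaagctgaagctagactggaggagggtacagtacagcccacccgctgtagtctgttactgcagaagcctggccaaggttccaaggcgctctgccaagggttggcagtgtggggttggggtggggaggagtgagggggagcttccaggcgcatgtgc
The Tert window held 2 GC boxes, both on the minus strand, whose first bases lay 51 and 14 bases before the start. The Dkc1 window held none of these letters. Of 32851 mouse promoter windows, 32.7% held a GC box, and 6.02% held the E-box CACGTG, which was in neither window. A window was found for 9 of the 10 members, of which 4 (Tert, Rtel1, Pot1a and Pot1b) held a GC box and 0 an E-box.

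The knockdown itself was present on every array labelled with it. All 4 Rif1 probe sets were lower in both lines, at 39.3% to 47.2% of control in J1 and 24.7% to 33.7% in F1. All 12 ES cell markers measured were above the 40th percentile on every array. The trimmed mean of the deposited signals was higher on F1 arrays, at 301 to 309 against 193 to 197 in J1. The medians were similar, at 65.9 to 67.7 in F1 and 61.1 to 69.4 in J1. Signals are therefore given as deposited, and differences are taken after quantile normalization as log2(signal + 18). A difference passed at an adjusted p under 0.05 with limma and Benjamini-Hochberg adjustment over all 31605 probe sets. The control and Rif1 shRNA lines of F1 also differed at the Y-linked genes Eif2s3y (mean signal 20.6 against 936) and Uty (6.12 against 143), which were present in both J1 groups. In F1, Sry was also higher with the shRNA (394 against 1531), on probes that may bind other transcripts. Usp9y went the other way (89.8 against 36.7). Both probe sets of Xist, an X-linked gene, were higher with the shRNA (112 against 198 and 28.5 against 61.9). What these differences between the F1 lines add to the F1 results was not tested.

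**Figure D1:**
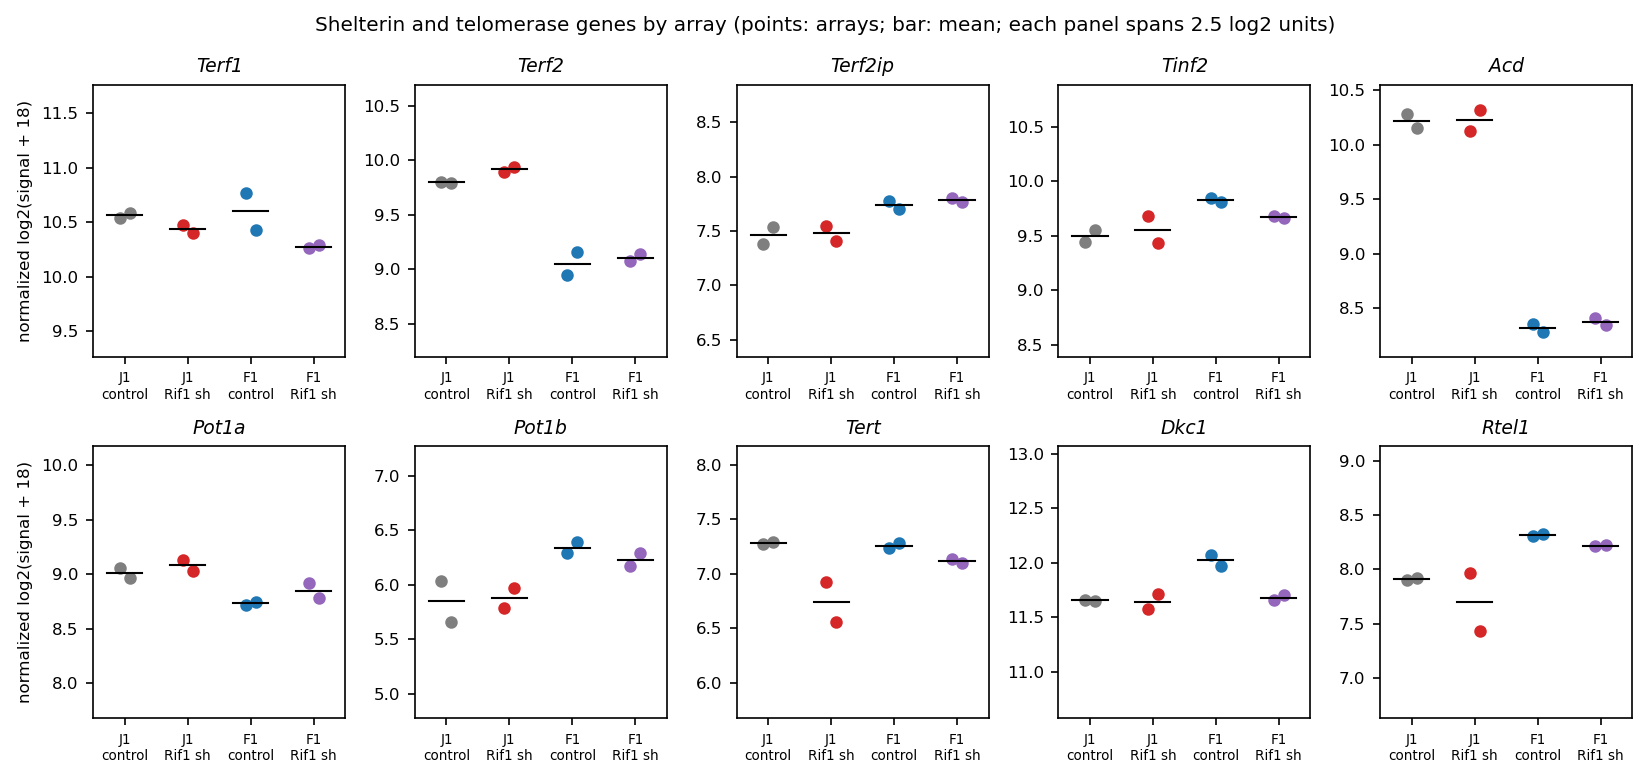
Normalized log2(signal + 18) of each of the 10 genes at its brightest tested probe set, with 1 point per array, a bar at the group mean and the same span of 2.5 log2 units in every panel. Tert is low on both J1 Rif1 shRNA arrays, Dkc1 is high on both F1 control arrays, and Acd separates the lines.

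In J1 cells 48 h after transfection, 1 member probe set was lower and 0 were higher. It belonged to Tert. Over all probe sets 3.18% passed in J1, 1.44% higher and 1.74% lower, so 1 of 21 is near the background. By unadjusted p under 0.05 the members counted 0 higher and 3 lower, where 17.1% of all probe sets passed, 7.93% higher and 9.17% lower. The arrays of the groups did not overlap for 9 of the 21, against 39.8% of all probe sets. Across the 10 genes the median difference was 0.01, beside -0.0014 over all probe sets.

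In F1 cells with the stable knockdown, 6 member probe sets were lower and 0 were higher, all from Dkc1 (3 of 3) and Terf1 (3 of 3). The background was 15.1% of all probe sets, with 8.28% higher and 6.81% lower. By gene the count was 2 of 10 lower, and by unadjusted p under 0.05 the probe sets again counted 0 higher and 6 lower. That total is near the 26.9% of all probe sets, which split into 13.3% higher and 13.6% lower. The arrays did not overlap for 14 of the 21, against 63.9% of all probe sets. The median over the 10 genes was -0.10, beside -0.03 over all probe sets. The knockdown effect differed between F1 and J1 for 2 member probe sets, both of Dkc1 and both lower in F1, where 8.37% of all probe sets passed, 4.99% higher and 3.37% lower in F1.

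Markers of other cells moved with the F1 knockdown. The summed signal of 13 feeder fibroblast markers was 14634 to 15058 in F1 controls and 30558 to 32132 with the shRNA, and 11 of the 13 were higher and 0 lower. In F1 all 13 were above the 40th percentile on every array. The summed signal of 8 markers of differentiated lineages was 1582 to 1699 in F1 controls and 8997 to 9765 with the shRNA. Of these 8, 3 were higher and 1 lower, and most of the sum came from the keratins Krt8 (mean 515 to 4427) and Krt18 (479.7 to 4329.6). Of the 12 ES cell markers, 6 were lower and 1 higher in F1, with a median of -0.27. In J1 the feeder sum was 12917 to 14132 in controls and 12176 to 12374 with the shRNA, with 3 of 13 lower and 0 higher. Those 3 were Acta2 (mean 682 to 187), Tagln and S100a6, and 1 of the 8 differentiation markers (Krt18) and 1 of the 12 ES markers were lower too. In these bulk samples fewer ES cells and less RNA per cell cannot be told apart, and the part of these markers in the member differences was not tested.

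**Figure D2:**
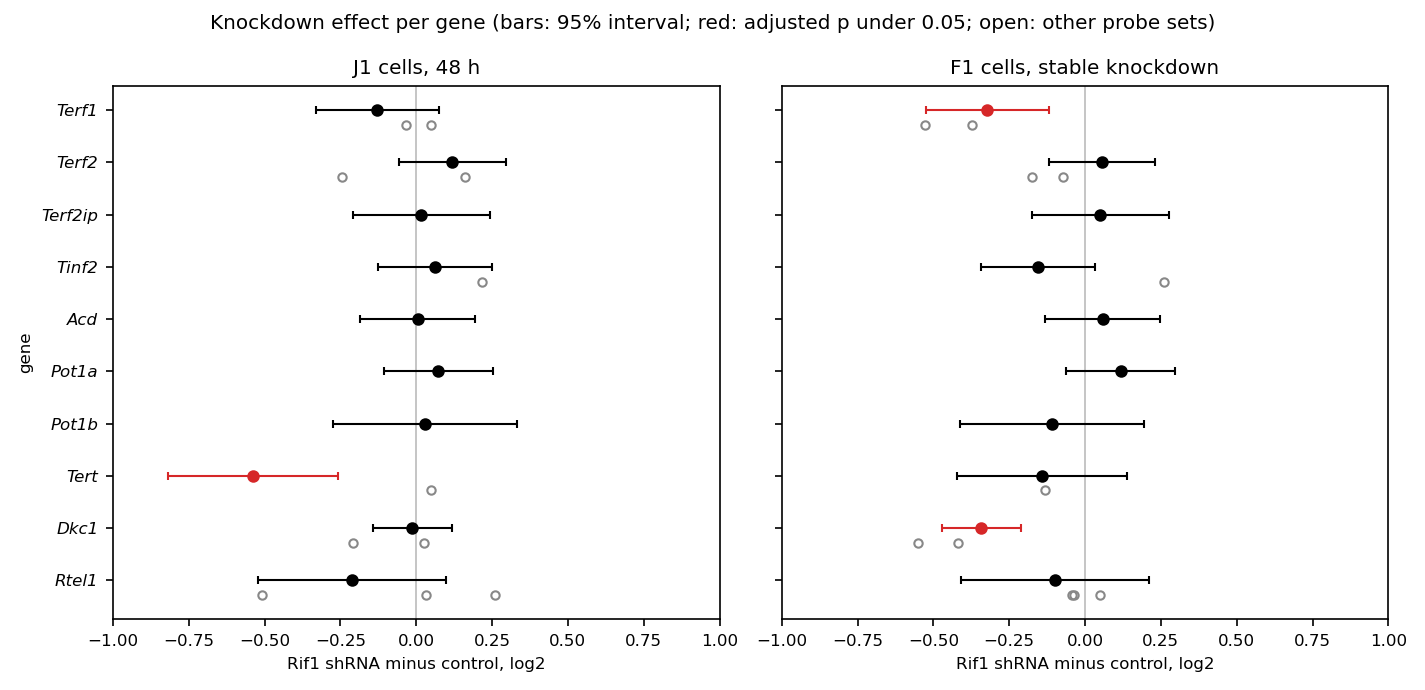
Rif1 shRNA minus control in log2 for each gene in J1 (left) and F1 (right), with filled points at the brightest tested probe set, bars for the 95% interval, red where the adjusted p was under 0.05, and open circles for the gene's other tested probe sets. Tert stands at -0.54 in J1 with its other probe set at 0.05, and all 3 probe sets of Dkc1 and of Terf1 lie below 0 in F1.

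Dkc1, the pseudouridine synthase subunit of telomerase that also works in ribosomal RNA modification, fell in the F1 knockdown. Its signal was 5215 and 4881 on the F1 control arrays and 4006 and 4109 on the F1 Rif1 shRNA arrays. In J1 it was 2577 and 2566 in controls and 2447 and 2703 with the shRNA. The F1 groups stand apart, while in J1 the control values lie between the shRNA values. The F1 difference was -0.34 ± 0.06 (SE; adjusted p = 0.00244), or 78.9% of control. In J1 the difference was -0.01 ± 0.06 (adjusted p = 0.944), with a 95% interval from -0.14 to 0.12. The F1 effect minus the J1 effect was -0.33 ± 0.08 (adjusted p = 0.0331).

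The other probe sets of Dkc1 moved the same way in F1. The brightest and 1438015_at are annotated to the same source sequence, so they are not independent of each other. On 1438015_at the signal was 4221 and 3922 in F1 controls and 2919 and 3409 with the shRNA, a difference of -0.42 (adjusted p = 0.00485), and the effect differed from that in J1 by -0.44 (adjusted p = 0.0361). On 1441788_s_at, whose suffix marks probes shared by several transcripts, it was 1736 and 1186 in controls and 1017 and 991 with the shRNA, a difference of -0.55 (adjusted p = 0.0241). The control arrays of that probe set lie further apart than its lower control lies from the knockdown arrays. The F1 fall of Dkc1 passed in 20 of 20 alternative settings, between -0.40 and -0.30 at the brightest probe set and at -0.44 as the mean of the 3. Its difference between the lines passed in 10 of 19, with adjusted p from 0.00827 to 0.169, and was lost when any of 6 of the 8 arrays was left out.

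Dkc1 is X-linked. Of 798 X-linked probe sets tested, 7.14% were lower and 14.8% higher in the F1 knockdown, and of 25485 autosomal ones 7.14% were lower and 8.79% higher. The median F1 difference was 0.01 for the X and -0.02 for autosomes. This comparison was added after the values of Dkc1 were seen. Xist was also higher in the F1 knockdown, and its part in the Dkc1 difference was not tested.

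Tert, the catalytic subunit, was lower in the J1 knockdown at its brighter probe set. Its signal was 120.4 and 115 in J1 controls and 92.1 and 78.6 with the Rif1 shRNA. In F1 it was 148 and 156 in controls and 139.8 and 136 with the shRNA. The groups do not overlap in either line. The J1 difference was -0.54 ± 0.13 (adjusted p = 0.0467), with a 95% interval from -0.82 to -0.26, or 68.8% of control. In F1 it was -0.14 ± 0.13 (adjusted p = 0.547). The difference between these effects was 0.40 ± 0.18 (adjusted p = 0.224), so a larger effect in J1 was not shown.

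The Tert signal was modest, at the 67th percentile of the array in J1 controls and the 58th with the shRNA. The second Tert probe set, 1450254_at, did not show the fall. Its signal was 103 and 93.1 in J1 controls and 95.3 and 115 with the shRNA, a difference of 0.05 (adjusted p = 0.905), and -0.13 in F1 (adjusted p = 0.639). The J1 call on the brighter probe set held in 6 of 20 alternatives, with differences from -0.74 to -0.24 and adjusted p from 0.00847 to 0.206. The mean of both probe sets gave -0.24 (adjusted p = 0.181), and the fit on the J1 arrays alone gave an adjusted p of 0.206. Of the 8 fits that left out 1 array, only that without J1 Rif1 shRNA replicate 1 kept the call, at an adjusted p of 0.00847. The ratio of the 3' to the 5' actin control probe sets moved with the J1 groups, at 2.71 and 2.61 in controls and 2.18 and 2.17 with the shRNA, and its part in the Tert difference was not tested.

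Terf1, which binds double-stranded repeats and restrains telomere lengthening, fell in F1 on each of its probe sets. At the brightest the signal was 2259 and 1767 in F1 controls and 1629 and 1660 with the shRNA. In J1 it was 1113 and 1162 in controls and 1052 and 1008 with the shRNA. The knockdown arrays are below both controls in each line, and F1 control replicate 1 is high. The F1 difference was -0.32 ± 0.09 (adjusted p = 0.037), or 80.0% of control, with a 95% interval from -0.52 to -0.12. In J1 it was -0.13 ± 0.09 (adjusted p = 0.533), and the lines differed by -0.19 ± 0.13 (adjusted p = 0.428).

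The Terf1 call at the brightest probe set was lost without any of 5 of the 8 arrays: J1 control replicates 1 and 2, F1 control replicate 1 and both F1 Rif1 shRNA arrays. The fit on the F1 arrays alone gave an adjusted p of 0.0503. Without F1 control replicate 1 the difference was -0.16 with an adjusted p of 0.285, and the call held in 11 of 20 alternatives. Controls were closer on 1431332_a_at, while on 1443527_at the F1 knockdown arrays lie further apart than the F1 controls. On 1431332_a_at the signal was 682 and 650.4 in F1 controls and 511 and 530.5 with the shRNA, a difference of -0.37 (adjusted p = 0.0148), with 0.05 in J1. On 1443527_at, near background in J1 at 28.6 to 34.5, it was 195 and 245 in F1 controls and 117 and 168 with the shRNA, a difference of -0.53 (adjusted p = 0.0353). Averaged over its 3 probe sets, Terf1 differed by -0.41 in F1 (adjusted p = 0.00435) and by -0.04 in J1. The J1 average takes in 1443527_at, which entered the test through its F1 arrays alone. The member count in F1 was 1 without F1 control replicate 1 or F1 Rif1 shRNA replicate 1, and 3 without F1 Rif1 shRNA replicate 2.

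The other DNA-binding subunits did not pass in either knockdown. Terf2, which keeps the end folded and silences ATM signalling there, had signals of 652 and 660.5 in J1 controls and 693 and 727 with the shRNA, a difference of 0.12 (adjusted p = 0.494). In F1 it was 613 and 725 in controls and 696 and 734 with the shRNA, a difference of 0.05 (adjusted p = 0.739). The 95% intervals of Terf2 ran from -0.06 to 0.29 in J1 and from -0.12 to 0.23 in F1 at this probe set. The others gave 0.16 and -0.24 in J1 and -0.07 and -0.17 in F1, and did not pass.

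Pot1a, the overhang-binding protein that restrains ATR signalling, had signals of 387 and 369 in J1 controls and 407 and 379 with the shRNA. In F1 they were 516 and 529 in controls and 619 and 564 with the shRNA, and these groups do not overlap. The differences were 0.07 (adjusted p = 0.707) in J1 and 0.12 (adjusted p = 0.417) in F1. Pot1b, known for control of end trimming, was dim, between 33.1 and 65.8 over the 8 arrays, and above the 40th percentile on the 4 F1 arrays alone. Its differences were 0.03 (adjusted p = 0.945) and -0.11 (adjusted p = 0.689). Its control values in J1, 50.3 and 33.1, enclose both shRNA values.

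The bridging subunits and RAP1 did not pass either. Tinf2, which ties TERF1 and TERF2 to ACD, had signals of 1185 and 1162 in F1 controls and 1084 and 1075 with the shRNA, a difference of -0.16 (adjusted p = 0.28). The fit on the F1 arrays alone gave it an adjusted p of 0.049. Its second probe set, 1437166_at, went the other way, from 93.3 and 87.2 to 121 and 117, a difference of 0.26 (adjusted p = 0.204, and 0.0387 on the F1 arrays alone). In J1 the Tinf2 values with the shRNA, 599.6 and 499, enclose the controls.

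Acd (TPP1), which recruits telomerase, differed by 0.01 in J1 and 0.06 in F1. Terf2ip differed by 0.02 and 0.05. The adjusted p values of both genes were from 0.74 to 0.985. Fits on the 4 arrays of a line called 0.886% of all probe sets in J1 (0.481% higher, 0.405% lower) and 25.7% in F1 (13.0% higher, 12.7% lower). The median residual SD was 0.115 in J1 and 0.0658 in F1, so in fits of a line alone equal changes are harder to detect in J1. The main fit uses the same SE in both lines, so it can understate the error in J1 and overstate it in F1.

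Rtel1, the helicase of the telomere loop, had signals of 178 and 176 in J1 controls and 183 and 138 with the shRNA, a difference of -0.21 ± 0.14 (adjusted p = 0.498). The shRNA arrays lie on both sides of the controls. The suffix of this probe set, 1436728_s_at, marks probes shared by several transcripts. Without J1 Rif1 shRNA replicate 1 the difference was -0.49 (adjusted p = 0.0201), which rests on the other shRNA array. In F1 it was 369 and 386 in controls and 366 and 369 with the shRNA, a difference of -0.10 (adjusted p = 0.732). Its other tested probe sets ranged from -0.51 to 0.26 in J1. The lowest, 1456729_x_at, had 109 and 101 in controls and 83.2 and 70.7 with the shRNA (adjusted p = 0.054), and its suffix marks probes that may bind other transcripts.

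Of the 5 member probe sets too dim to test, 3 belonged to Pot1a and 2 to Terf2ip. Their absence leaves Pot1a and Terf2ip described by 1 probe set each.

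Between the 2 control lines, 7 member probe sets were higher and 6 lower in F1, against 67.5% of all probe sets, 33.5% higher and 34.0% lower. Arrays did not overlap for 15 of the 21, against 85.3%. By gene, 5 were higher in F1, 3 lower and 2 did not pass. The 5 include Pot1b, which was tested only because its F1 arrays are bright enough. Among the probe sets, Terf1 1443527_at likewise entered through its F1 arrays alone, and Rtel1 1456729_x_at through its J1 arrays alone. The 3' to 5' ratio of the actin control probe sets also differed between the lines, at 2.71 and 2.61 in J1 controls and 1.35 and 1.41 in F1 controls, and that of Gapdh at 1.42 and 1.39 against 0.958 and 0.994, and their part was not tested. The scaling of the arrays matters here. The median over all probe sets was -0.02 after quantile normalization, 0.30 with the values as deposited and -0.24 after linear scaling to one trimmed mean. The higher share of the calls was 49.7%, 72.3% and 35.1% in turn. In F1 alone, the higher share of the knockdown calls was 54.9% after quantile normalization and 62.5% as deposited.

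At the brightest probe sets, Acd separated the lines most among the members. Its signal was 926 and 852 in J1 controls and 814 and 945 with the shRNA, against 384 and 371 in F1 controls and 429 and 403 with the shRNA. Every F1 array is below every J1 array, although F1 arrays have the higher trimmed mean. The difference between controls was -1.90 ± 0.09 (adjusted p = 2.09e-08), or 3.73-fold lower in F1, and it was -1.20 with the values as deposited and -1.81 with linear scaling. It rests on the only Acd probe set, and whether the strains differ in the sequence under its probes was not tested.

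Tinf2, Dkc1 and Rtel1 were higher in F1 controls under all 3 scalings at their brightest probe sets. Relative to J1 the differences were 0.33, 0.37 and 0.41 after quantile normalization (adjusted p = 0.00511, 0.00021 and 0.0241). The probe sets of these genes disagreed. Dkc1 1441788_s_at was lower in F1 by -0.78 (adjusted p = 0.000563), and Rtel1 1456729_x_at fell from 109 and 101 in J1 controls to 7.56 and 8.62 in F1 controls. Averaged over probe sets, Dkc1 differed by 0.07 (adjusted p = 0.451), Rtel1 by -0.54 (adjusted p = 0.000168) and Tinf2 by 0.18 (adjusted p = 0.0955). The Rtel1 average takes in 1456729_x_at, which entered the test through the J1 arrays alone and is near the bottom of the F1 arrays, so its size has no firm meaning. The second Tinf2 probe set gave 0.04.

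The other members depended on the scaling. Terf2 was lower in F1 controls by -0.75 (adjusted p = 9.11e-06) after quantile normalization but differed by 0.023 as deposited, and its other probe sets gave 0.16 and -0.04. Pot1a gave -0.28 and, as deposited, 0.45. Terf2ip gave 0.28 and 0.74 but 0.16 with linear scaling, which did not pass. Pot1b gave 0.50 and 0.46 but -0.0085 with linear scaling, and since it entered the test only through its F1 arrays, its difference between the lines is a description. Terf1 (0.04) and Tert (-0.02) did not pass after quantile normalization and gave 0.80 and 0.33 as deposited. The dim Terf1 probe set 1443527_at was above the 40th percentile in F1 alone and entered the test through those arrays. Its higher level in F1 controls is therefore a description. The mean of the Terf1 probe sets takes it in, and its value of 0.65 has no firm meaning.

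**Figure D3:**
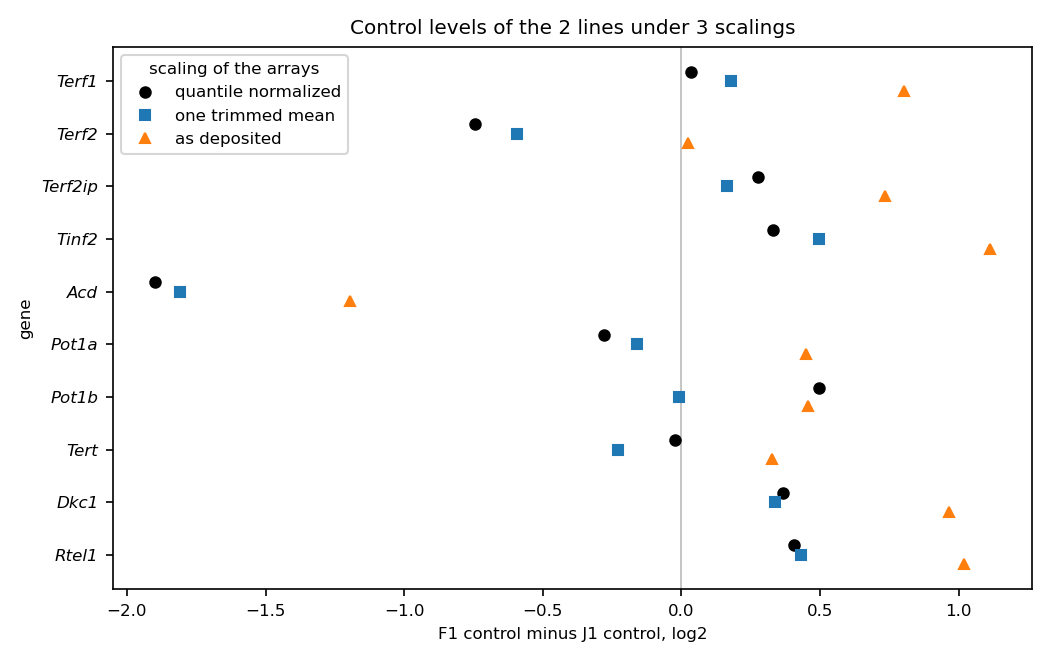
F1 control minus J1 control in log2 for each of the 10 genes at its brightest tested probe set under 3 scalings of the arrays. Acd lies between -1.90 and -1.20 under all 3, while Terf2 moves from -0.75 to 0.023 and Pot1a from -0.28 to 0.45.

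Placed in order of the 4 group means after quantile normalization, most neighbours did not differ. Dkc1 ran from J1 Rif1 shRNA through J1 control and F1 Rif1 shRNA to F1 control, and only the last step passed. On its probe set 1441788_s_at the F1 groups were lowest instead. The means there were 9.57 (shRNA) and 10.1 (control) in F1 against 10.7 and 10.9 in J1. Tert was lowest in J1 Rif1 shRNA, a step below F1 Rif1 shRNA (adjusted p = 0.0208), and the F1 groups and J1 control followed with no step that passed. Terf1 ran from F1 Rif1 shRNA through J1 Rif1 shRNA and J1 control to F1 control with no neighbouring step past the threshold. For Terf2 and Acd the F1 groups were lowest, and only the step from F1 Rif1 shRNA to J1 control passed. In Terf2ip only the step from the J1 to the F1 groups passed (adjusted p = 0.0413). Pot1b was also lower in the J1 groups, all below the 40th percentile, than in the F1 groups that carried it into the test. Pot1a ran from the F1 groups to the J1 groups, and Tinf2 and Rtel1 from the J1 to the F1 groups, with no neighbouring step past the threshold.

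By the root mean square difference of the log2 values over the 8 arrays, each centred on its own mean, the genes nearest to Dkc1 were Hdac3 (0.0444), Senp3 (0.0448) and Hcfc1 (0.0472), against 0.164 for Dkc1 about its own mean. Nearest to Tert were Ddr1 (0.0454), Fam120b (0.0691) and Kiz (0.0694), against 0.236 for Tert. For Terf1 they were Trim80, Cct3 and Rrn3 (0.0564 to 0.0604, against 0.153). For Acd they were Ccdc97, Gaa and Ccdc184 (0.0452 to 0.0667, against 0.939). The genes nearest to Terf2 were Supt20, Siva1 and Nfe2l1, to Terf2ip Coa5, Septin10 and Ric8a, and to Tinf2 Hnrnpll, Tor3a and Xpr1. The genes nearest to Pot1a were Abhd4, Nfatc2 and Eola1, to Pot1b Ppm1a, Slc9a8 and Rpf1, and to Rtel1 Mettl23, Tysnd1 and Acads. The measure takes in the difference between the lines as well as the knockdown.

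Other genes of telomere biology were taken from a fixed list of 53, of which 49 were measured. In J1, 1 was higher and 1 lower (4.08%), namely Tcstv3 and Rif1 itself. In F1, 2 were higher and 7 lower (18.4%), with a median of -0.06. Without Rif1, the target of the shRNA, the F1 count was 2 higher and 6 lower of 48 (16.7%), near the background of 15.1%. The background shares are those given for the members. The 12 telomerase assembly genes measured, which include the dyskerin partners Nop10, Nhp2 and Gar1, counted 1 lower and 0 higher in F1, and 0 in J1. The 5 genes of the CST complex and end replication counted 1 lower in F1, and the 11 telomere nucleases and helicases 1 lower. The 4 ALT and heterochromatin genes counted 0, with 3 lower at an unadjusted p under 0.05 with limma. Of all probe sets 26.9% reached that, 13.3% higher and 13.6% lower.

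Besides Rif1, the genes with the smallest p among those lower in F1 were Xrcc5, Pola1 and Mre11a. Xrcc5 (Ku80), an end-binding subunit, went from a mean of 2503 ± 55.2 (SD, n = 2) to 1830 ± 21.3, a difference of -0.48 (adjusted p = 0.000125). Pola1, the catalytic subunit of the polymerase that fills in the telomeric C strand, went from 911 ± 19.9 to 638 ± 5.82, a difference of -0.53 (adjusted p = 0.000282). Mre11a, a nuclease of the break sensor, went from 937 ± 17.0 to 697 ± 17.9, a difference of -0.45 (adjusted p = 0.00204), with its other probe set not past the threshold. The remaining genes lower in F1, named after their values were seen, were Pif1 (-0.53), Xrcc6 (-0.28) and Ruvbl2 (-0.23).

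Tcstv1 and Tcstv3, genes of the 2-cell embryo linked to telomere elongation, were higher. Tcstv1 went from 64.2 ± 6.65 to 518 ± 24.9 in F1, a difference of 2.31 (adjusted p = 3.91e-07). Tcstv3 went from 23.4 ± 1.48 to 211 ± 37.2 in F1 (adjusted p = 1.01e-06) and from 22.1 ± 2.25 to 84.8 ± 3.96 in J1 (adjusted p = 0.000134). The control levels of Tcstv3, and Tcstv1 in J1 (15.0 and 18.6 on average), are below the 40th percentile, so no size of change is given there. Tcstv3 entered the test only through the knockdown arrays, so its differences are a description. The effect differed between F1 and J1 for 7 of the 49 (14.3%). Without Rif1 the count was 2 higher and 4 lower in F1, of 48 (12.5%). Over all probe sets the share was 8.37%, with 4.99% higher and 3.37% lower. In F1 relative to J1, Rif1 (-0.66), Xrcc5 (-0.48), Pola1 (-0.40), Ruvbl2 (-0.40) and Mre11a (-0.38) were lower. Tcstv1 and Tcstv3 counted as higher, but rest in part on values below the 40th percentile, so these calls are a description. The adjusted p for Mre11a was 0.0497. For Terf1 the F1 effect minus the J1 effect was short of the threshold with limma. It was -0.19 on the brightest probe set (adjusted p = 0.428) and -0.42 on 1431332_a_at (adjusted p = 0.0635). The mean of its probe sets gave -0.37 (adjusted p = 0.0567). That mean takes in 1443527_at, near background in J1 and tested through its F1 arrays alone, so its size has no firm meaning.

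**Figure D4:**
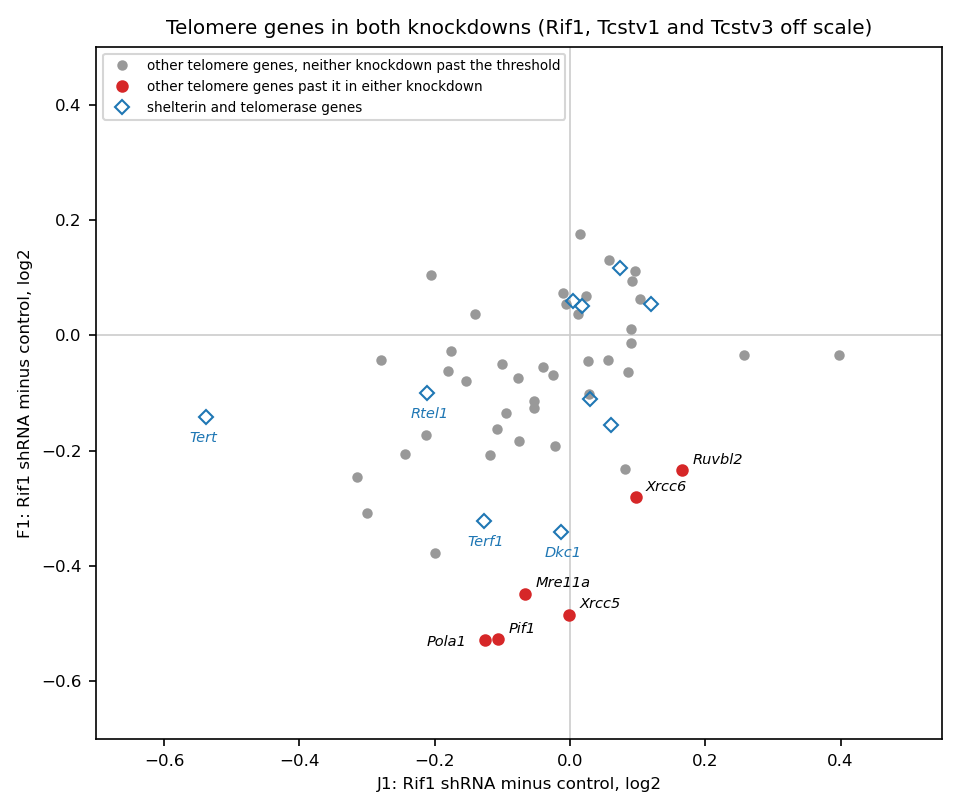
Rif1 shRNA minus control in log2, J1 on the horizontal and F1 on the vertical axis, with 1 point per gene: grey for other telomere genes past the threshold in neither line, red for those past it in either, and open diamonds for the 10 shelterin and telomerase genes. Dkc1 and Terf1 lie at -0.34 and -0.32 in F1, above the red points of Pola1, Pif1, Xrcc5 and Mre11a between -0.53 and -0.45, and Tert stands alone at -0.54 in J1.

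Between the control lines, 26 of the 49 differed (53.1%), 17 higher and 9 lower in F1. Over all probe sets the share was 67.5%, with 33.5% higher and 34.0% lower. The smallest p values among those higher belonged to Ruvbl2 (1.71), Tcstv1, Ruvbl1 (0.66) and H3f3a (1.31). Among those lower they belonged to Hmbox1 (-1.85), Naf1 (-0.85), Ctc1 (-0.86) and Parn (-0.68). Ruvbl2, Ruvbl1, Tcstv1, H3f3a and Hmbox1 passed in the same direction under all 3 scalings. Tcstv1 entered the test through its F1 arrays, so its call is a description. As deposited, Naf1 (-0.10), Ctc1 (-0.12) and Parn (0.097) did not pass, and Parn changed sign. Of the 12 telomerase assembly genes measured, 5 were higher in F1 controls, the ATPases Ruvbl1 and Ruvbl2 among them. The 2 lower were Naf1 and Parn, and the share of 58.3% is below that of all probe sets. Dkc1 was higher at its brightest probe set but differed by 0.07 as the mean of its probe sets.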

How the data were processed

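Total RNA of mouse ES cells was hybridised to arrays. The deposited values are linear signal intensity per probe set, made with MAS5 per the submitters' processing notes (version not given in the sources used here). All 45101 probe sets had a value on each of the 8 arrays. Values were quantile normalized as log2(signal + 18), 64 control probe sets were left out, and 31605 passed the filter on dim signals. Array number, 2 per group, limits the precision.

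Group means over all 8 arrays were fitted with limma 3.58.1 in R 4.3.3 (eBayes with an intensity trend, 4 residual and 6.94 prior degrees of freedom), with two-sided tests and Benjamini-Hochberg adjustment over all tested probe sets. Each gene was described at its brightest tested probe set. From the list of other telomere genes the text names the 4 with the smallest p in each direction, or all if 5 or fewer. The members and lists were chosen with earlier results of these data known. The fit was tested on simulated data. Gene names came from the platform annotation, positions and promoters from RefSeq GRCm38.p6, and figures from matplotlib 3.10.9 in Python 3.11.15. Alternatives covered the offset, the filter, the scaling, the arrays fitted, the trend, the replicate block, each array left out, and the mean of a gene's probe sets.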

Additional observations from a re-analysis of the deposited data

Results flagged for a closer look

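The knockdown effect on Dkc1 differed between the lines by a direct test of the difference, with limma. The F1 effect minus the J1 effect was -0.33 on its brightest probe set (adjusted p = 0.0331) and -0.44 on 1438015_at (adjusted p = 0.0361). Both of these are annotated to the same source sequence and were read on the same arrays, so they are not independent. The third probe set gave -0.34 (adjusted p = 0.36), and the mean of the Dkc1 probe sets gave -0.37 (adjusted p = 0.0674). With 2 arrays in each group, no group was large enough for a search for outlying arrays.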

How the results depend on the processing

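Of 766 member values over 20 alternative settings, 705 kept their direction or stayed short of the threshold, 50 lost the call, 6 gained it and 5 reversed. Among the 705, 27 had the opposite sign with no call either time. A reversal here is a change of sign with a call in the main fit, the alternative or both. The reversals all concerned the control lines: Terf2 (0.023), Pot1a (0.45) and Tert (0.33) as deposited, Pot1b (-0.0085) with linear scaling, and Rtel1 (-0.54) as the mean of its probe sets. Of these, only Pot1a and Rtel1 passed in both directions. Terf2 and Pot1b were near 0 and did not pass in the alternative, and Tert did not pass in the main fit.

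The single J1 member call became 2 with the larger offset and 0 with the values as deposited, normalization within each line, the 4 arrays of the line, no intensity trend, linear scaling or the replicate block. Calls over all probe sets in J1, 1004, became 280 with the 4 arrays, 350 with no trend and 468 with the replicate block. In F1 the 4 arrays gave 8127 calls in place of 4768 and 16 other telomere genes in place of 9. For the difference between the lines, the member calls fell from 2 to 0 and the other telomere genes from 7 to 4 with no trend and with the replicate block, which gave 1709 over all probe sets in place of 2644.

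Leaving out each array in turn gave 229 to 1763 calls in J1, 1856 to 6211 in F1 and 1014 to 3995 for the difference. Member calls were 0 to 3, 1 to 6 and 0 to 4, and other telomere genes 2 to 4, 6 to 10 and 3 to 9. For the control lines the ranges were 17257 to 22464, 10 to 13 and 23 to 29.

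Same-numbered replicates did not deviate together in J1 (correlation -0.34) and did so weakly in F1 (0.19), so the numbers were not used as pairs. The crossed pairing and the linear scaling were chosen after seeing the data. Crossed, the calls were 1088 in J1, 5196 in F1 and 3001 for the difference. Normalization within each line was not run for the control lines, and the fit on the 4 arrays of a line cannot compare lines. Dim probe sets, such as that of Pot1b, limit what could be detected.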
